A study of Mus musculus with 3 samples.

Results

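Adhesion molecules of the immunoglobulin superfamily stand on the surface of vessel walls, epithelia and nerve cells, and some of them hold passing leukocytes by binding integrins. In inflamed tissue the NF-κB pathway is known to switch several of them on. Serglycin, the product of Srgn, is a small proteoglycan whose sugar chains pack proteases and cytokines into secretory granules, best known from blood cells. The genes described here are 9 in number out of 52948 gene IDs in the files, namely Madcam1, Vcam1, Icam1, Alcam, Mcam, Cd44, Igsf9, F11r and Srgn. They were picked by name as surface adhesion molecules together with serglycin, with earlier results of these data in view, so their differences between the libraries are given as a description. All 9 Ensembl IDs matched a mouse symbol.

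RNA sequencing was done on αTC1-6 cells, a mouse line grown from a glucagonoma, a tumour of pancreatic α cells. The cells received an adenovirus 16 h before harvest, carrying NIK, NIK(KA) or, as the viral control, β-Gal. NIK is the NF-κB-inducing kinase, which starts the non-canonical NF-κB pathway. NIK(KA) is known in the literature as a form with a mutated kinase site, a detail the labels do not state. No group is free of virus, all 3 share the same culture conditions, and each is 1 library of 1 cell line. The sources used here give neither the promoter of the transgenes nor the share of infected cells. There were therefore no replicates, and no difference below has a replicate check or a p-value. The sample labels used here name no batch or sequencing run, so a batch difference cannot be told apart from a group difference.

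Counted reads numbered 15523580 in NIK, 16652922 in NIK(KA) and 18629668 in β-Gal. Map3k14, the gene of NIK, was at 8.42, 12.1 and 5.35 FPKM in NIK, NIK(KA) and β-Gal, higher in both overexpressing libraries than in the control. The ratio to β-Gal was 1.57 in NIK, which is under 2-fold, and 2.25 in NIK(KA). How far these reads stem from the transgenes was not tested. FPKM are fragments scaled by gene length and library total. The length is the mean over the annotated transcripts of a gene, so comparisons between genes rest on that length. The 10 α-cell markers were all detected and summed to 8732 FPKM in NIK, 12945 in NIK(KA) and 14921 in β-Gal. On the log2(FPKM + 1) scale their median difference was -0.75 for NIK against β-Gal and -0.55 for NIK against NIK(KA). At least 2-fold lower were 0 and 1 of them, beside 1.48% and 1.1% of the 12950 tested genes defined below. That one was Chga, a granule protein gene, at 633 FPKM in NIK, 1315 in NIK(KA) and 1267 in β-Gal. Against β-Gal, Chga in NIK was also close to 2-fold lower, at the edge of the rule and not counted. Gcg, the glucagon gene, was the third most abundant protein-coding gene in NIK and the first in NIK(KA) and β-Gal. The 13 leukocyte markers summed to 8.31 FPKM in NIK, 6.64 in NIK(KA) and 5.85 in β-Gal, and 6, 5 and 6 of them had 0 reads. Ptprc, which marks all leukocytes, had 0, 1 and 0 reads. The 9 endothelial markers summed to 1.55, 2.995 and 1.85 FPKM in the same order, and Cdh5, the cadherin that defines endothelium, had 2, 0 and 2 reads. The 8 stromal markers summed to 2.64, 2.53 and 4.22 FPKM. With a mean of at least 1 FPKM were 2 leukocyte, 1 endothelial and 2 stromal markers. Of these, 0, 0 and 1 were at least 2-fold lower in NIK than in β-Gal, beside the 1.48% of all tested genes. In bulk RNA, more cells with a transcript and more transcript per cell cannot be told apart.

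The upstream sequences of the genes with the widest gaps between libraries come first, because the study overexpressed a kinase of the NF-κB pathway. RefSeq (GRCm38.p6) gave a start site for 8 of the 9 genes, the exception being Vcam1. Shown are bases upstream of the start, 5′ to 3′ on the strand of the gene, without those in GENCODE M21 exons. Capitals mark matches on either strand to the NF-κB consensus, to GGAAATTCC (a variant of the κB site), to TTCNNNGAA (the core of STAT sites), to GAAANNGAAA (the core of IRF sites) or to TATAAA.
Madcam1 (chr10:79664309-79664558, + strand): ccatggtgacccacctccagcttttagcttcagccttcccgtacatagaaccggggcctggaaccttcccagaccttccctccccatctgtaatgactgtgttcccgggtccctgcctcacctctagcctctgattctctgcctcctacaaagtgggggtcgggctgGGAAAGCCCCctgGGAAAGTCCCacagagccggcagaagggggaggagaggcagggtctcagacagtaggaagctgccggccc
Icam1 (chr9:21015690-21015939, + strand): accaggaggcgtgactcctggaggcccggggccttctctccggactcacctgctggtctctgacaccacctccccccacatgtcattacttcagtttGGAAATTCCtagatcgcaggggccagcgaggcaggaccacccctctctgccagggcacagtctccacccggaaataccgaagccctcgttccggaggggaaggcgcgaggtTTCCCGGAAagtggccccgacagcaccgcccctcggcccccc
Igsf9 (chr1:172481963-172482198, + strand): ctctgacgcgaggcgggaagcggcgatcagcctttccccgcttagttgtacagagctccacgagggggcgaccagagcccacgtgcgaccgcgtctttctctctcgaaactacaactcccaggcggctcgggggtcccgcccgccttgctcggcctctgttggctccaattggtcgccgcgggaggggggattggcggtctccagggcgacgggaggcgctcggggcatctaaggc
Srgn (chr10:62527452-62527695, - strand): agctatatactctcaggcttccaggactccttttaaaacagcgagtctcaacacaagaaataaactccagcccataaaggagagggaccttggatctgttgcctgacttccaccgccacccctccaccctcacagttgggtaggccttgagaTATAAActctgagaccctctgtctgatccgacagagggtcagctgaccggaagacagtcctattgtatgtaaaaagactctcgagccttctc

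The Madcam1 window held 2 matches to the NF-κB consensus on the reverse strand, GGGGCTTTCC at 83 to 74 bases and GGGACTTTCC at 70 to 61 bases before the start. None of the other 8 windows, Srgn having 2 start sites, held this consensus, which occurred in 3.9% of all 32851 promoter windows of 250 bases. The Icam1 window held GGAAATTCC from 153 to 145 bases before the start, a string found in 0.286% of all windows. It also held TTCNNNGAA on both strands from 42 to 34 bases, found in 7.02%. The first start of Srgn had TATAAA (12.4% of windows) and its second start GAAANNGAAA (2.98%). A looser form, GGGNNNNNCC, which takes in every consensus match, was present in windows of Madcam1, Icam1, Mcam, Cd44, Igsf9, F11r and the second start of Srgn. It occurred in 45.8% of all windows. The Alcam window had no match to any of the 6 motifs. All 250 bases of the Alcam and Mcam windows and 174 of the second Srgn window, its matches included, lie in annotated exons, and the search covered them. These are matches of letters and were not tested as binding sites. The set of motifs was settled after the sequences were seen, so the shares of all windows do not measure how unlikely these matches are.

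**Figure D1:**
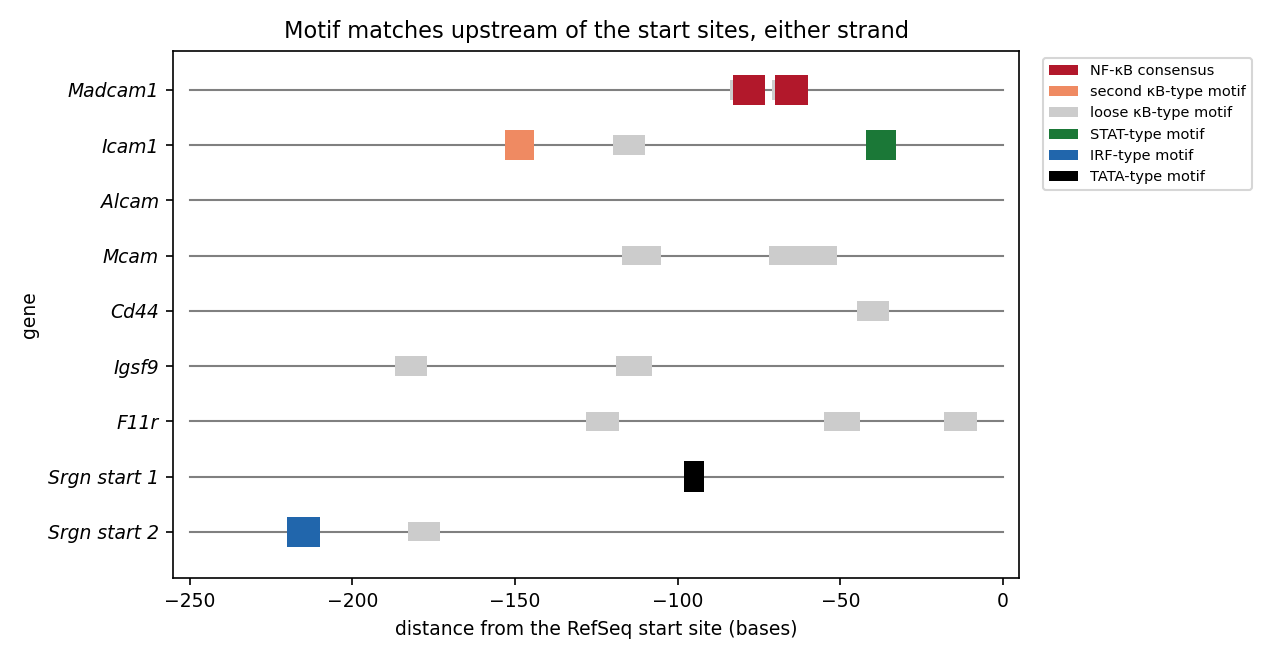
Positions of motif matches on either strand in the 250 bases upstream of each RefSeq start site, with the distance from the start in bases on the x axis and 1 row per start site. The 2 matches to the NF-κB consensus lie in Madcam1 and the match to the second κB-type motif in Icam1, while the loose motif is spread over most rows.

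The levels were of 3 kinds. Madcam1, Vcam1, Icam1, Igsf9 and Srgn were abundant in NIK and scarce in both other libraries. Alcam was abundant in all 3 libraries, and Mcam, Cd44 and F11r were below 1 FPKM throughout. A gene was tested when its mean over the 3 libraries was at least 1 FPKM, and called when log2(FPKM + 1) differed by at least 1. That gave 12950 tested genes, with 6 of the 9 genes among them. Of these 6, 5 were called higher in NIK than in β-Gal and 0 lower, where 5.14% of all tested genes were called higher and 1.48% lower. Against NIK(KA), 5 were again called higher and 0 lower, with 5.07% of all tested genes higher and 1.1% lower. Between NIK(KA) and β-Gal, 0 were called higher and 0 lower, where 0.263% and 0.417% of tested genes were. Madcam1, Vcam1 and Icam1 passed the filter through the NIK library alone. Srgn, at 1.58 FPKM in NIK(KA) and 0.424 in β-Gal, also needed its NIK value to pass. Nothing is therefore read from these counts. Over all 9 genes the median difference was 4.41 for NIK against β-Gal, 4.44 for NIK against NIK(KA) and 0.00 for NIK(KA) against β-Gal. Over all tested genes these medians were -0.02, -0.03 and 0.01. The medians of the 9 genes in the NIK comparisons depended on the pseudocount. With 0.1 they were 6.31 and 5.87, and with 5 they were 2.38 and 2.38. The first and the third comparison share the β-Gal library, and the first and the second share NIK.

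**Figure D2:**
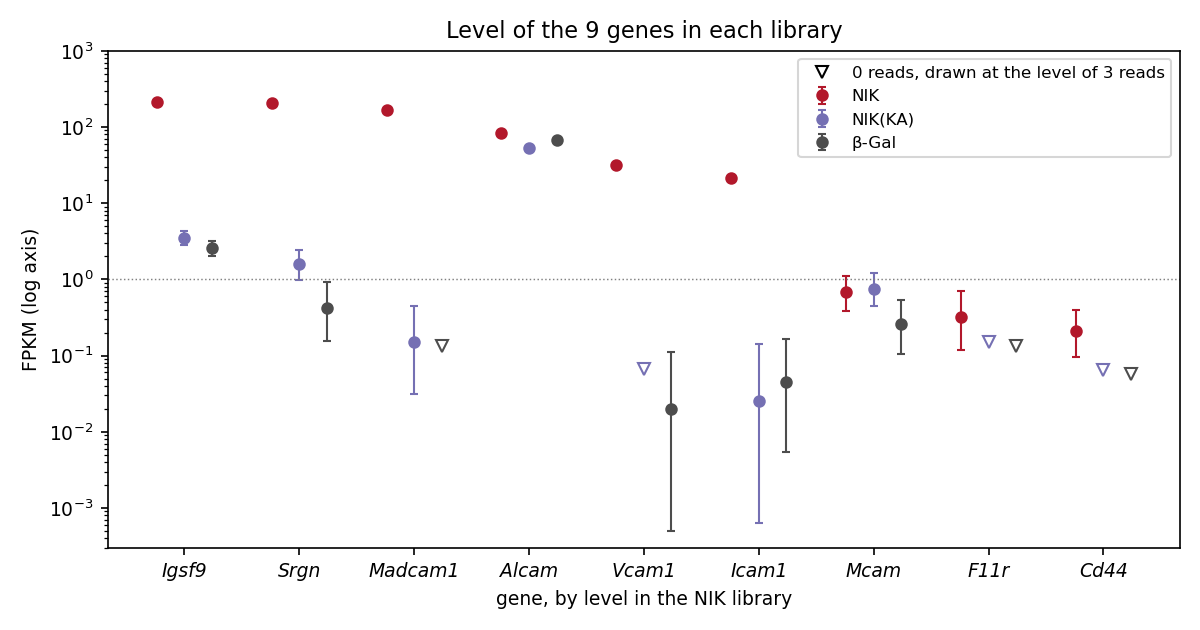
FPKM of the 9 genes on a log axis, with 1 point per library (NIK, NIK(KA), β-Gal) and exact 95% Poisson intervals for counting error as bars, where open triangles stand for 0 reads, drawn at the level of 3 reads, and the dotted line for 1 FPKM. Of the genes above 1 FPKM in NIK, Alcam alone is within 2-fold in all libraries, with 82.7 FPKM in NIK, 52.8 in NIK(KA) and 67.0 in β-Gal.

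Madcam1 and Vcam1 encode ligands of the α4 integrins. Madcam1 makes the addressin of mucosal venules that binds α4β7 integrin and steers lymphocytes to the gut. The gene (ENSMUSG00000020310) spans 79664559 to 79668537 of chromosome 10 on GRCm38. It was at 168 FPKM in NIK, 0.151 in NIK(KA) and 0 in β-Gal, from 3104, 3 and 0 reads. The NIK library stood far above the others, which were at or below the 3 reads that a count of 0 allows. With β-Gal set to 3 reads, Madcam1 in NIK was 1242-fold higher, and the exact interval against β-Gal begins at 1009. Its ratio of NIK to NIK(KA) was 1110 (379 to 5385). This interval and all later ones on ratios are exact at 95% and take each library's total into account. Only counting error is covered, since reads that carry no molecular identifiers need not stem from separate molecules. Ratios against 3 reads leave out the counting error of the NIK reads, and the exact intervals allow more than 3 reads for a count of 0.

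Vcam1 makes the ligand of α4β1 integrin on activated endothelium. The gene (ENSMUSG00000027962) lies on chromosome 3 from 116109949 to 116129688. It was at 31.4 FPKM in NIK, 0 in NIK(KA) and 0.0198 in β-Gal, from 1319, 0 and 1 reads. For Vcam1, NIK was the one library with more than a single read. The ratio of NIK to β-Gal was 1583 (284 to 62569), a wide interval set by the 1 read of β-Gal. Against NIK(KA) set to 3 reads, Vcam1 was 472-fold higher in NIK, and the exact interval begins at 383. Madcam1 was 5.36 times the level of Vcam1 in NIK.

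Icam1 makes the ligand of the leukocyte integrins LFA-1 and Mac-1. The gene (ENSMUSG00000037405) lies on chromosome 9 from 21015985 to 21028817. It was at 21.2 FPKM in NIK, 0.0253 in NIK(KA) and 0.0453 in β-Gal, from 781, 1 and 2 reads. NIK stood apart, and the other libraries were within 3 reads of 0. Its ratio was 469 (129 to 3877) for NIK against β-Gal and 838 (150 to 33134) for NIK against NIK(KA). An annotated antisense gene, Gm47079, overlaps Icam1 and had 10, 1 and 2 reads in NIK, NIK(KA) and β-Gal. The strand setting of the counting is not given, so reads of the pair cannot be told apart.

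Igsf9 makes an immunoglobulin-family adhesion protein known from dendrites and synapses of neurons. The gene (ENSMUSG00000037995) lies on chromosome 1 from 172481788 to 172498878. It was the most abundant of the 9 genes in NIK, at 212 FPKM, with 3.54 in NIK(KA) and 2.57 in β-Gal, from 5088, 91 and 74 reads. Unlike the integrin ligands, it was measurable in all libraries. NIK exceeded β-Gal 82.5-fold (65.6 to 105) and NIK(KA) 60.0-fold (48.8 to 74.6). The ratio of NIK(KA) to β-Gal was 1.38, with an interval of 1.00 to 1.90 and a difference of 0.35 on the log2(FPKM + 1) scale. In NIK, 96.3% of the tested genes were below Igsf9, against 20.5% in NIK(KA) and 15.7% in β-Gal.

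Srgn (ENSMUSG00000020077) lies on chromosome 10 from 62493833 to 62527451. It was at 206 FPKM in NIK, 1.58 in NIK(KA) and 0.424 in β-Gal, from 2425, 20 and 6 reads. The 3 libraries lay in steps, and β-Gal was the lowest. NIK exceeded β-Gal 485-fold (223 to 1323) and NIK(KA) 130-fold (84.0 to 213). NIK(KA) was 3.73-fold above β-Gal (1.44 to 11.4). That last difference came to 0.86 on the log2(FPKM + 1) scale, short of the threshold of 1, and with a pseudocount of 0.1 it was 1.68. In NIK, 96.1% of tested genes were below Srgn, against 9.06% in NIK(KA) and 1.07% in β-Gal.

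**Figure D3:**
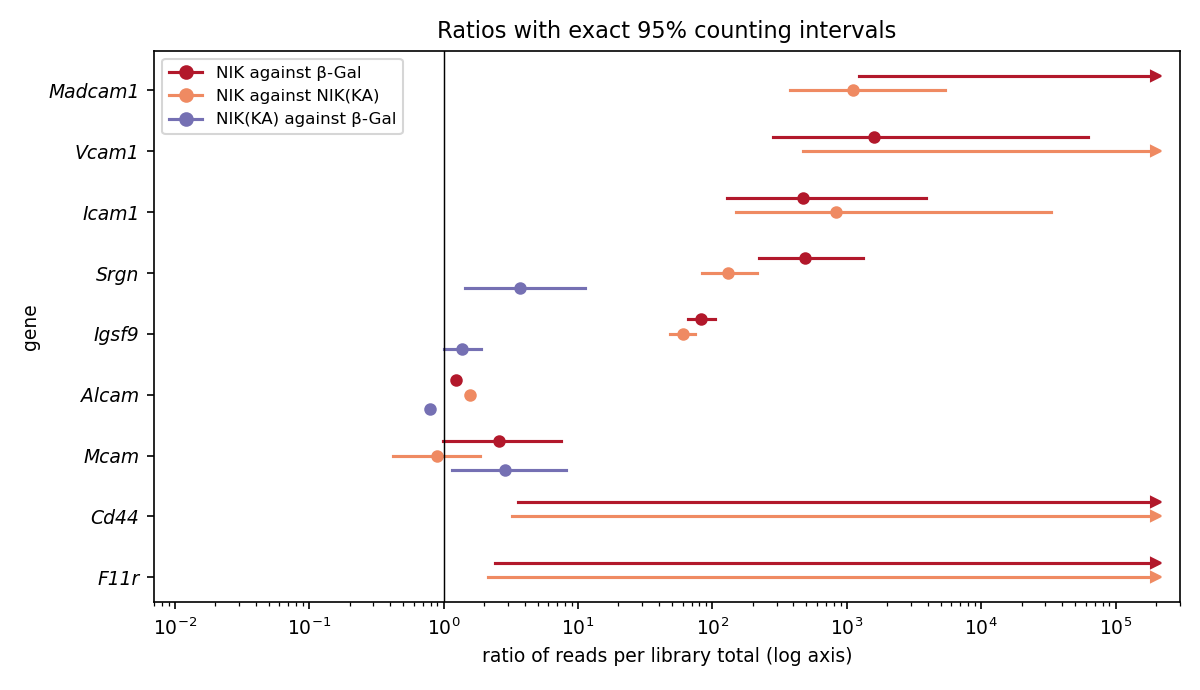
Ratios of reads per library total on a log axis for NIK against β-Gal, NIK against NIK(KA) and NIK(KA) against β-Gal, with exact 95% counting intervals as lines. An arrow starts at the ratio against 3 reads where the second library had 0, and pairs with 3 reads or fewer in both are left out. Igsf9, Srgn, Icam1, Vcam1 and Madcam1 lie far to the right of 1 in both NIK comparisons, and Alcam lies next to 1 in all 3.

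Alcam makes a homophilic adhesion protein that also binds CD6 of T cells. The gene (ENSMUSG00000022636) lies on chromosome 16 from 52248996 to 52454074. It was at 82.7 FPKM in NIK (79.5 to 86.1, exact Poisson interval), 52.8 in NIK(KA) (50.4 to 55.4) and 67.0 in β-Gal (64.4 to 69.8), from 2462, 1687 and 2393 reads. NIK was highest and NIK(KA) lowest, with no overlap of the counting intervals. The ratio was 1.24 for NIK against β-Gal (1.17 to 1.31), 1.57 for NIK against NIK(KA) (1.47 to 1.67) and 0.789 for NIK(KA) against β-Gal (0.741 to 0.840). On the log2(FPKM + 1) scale these were 0.30, 0.64 and -0.34, none of them 2-fold. For scale, the NIK to β-Gal ratio was 1.40 for Actb (1.36 to 1.46) and 1.00 for Gapdh (0.988 to 1.01).

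Alcam made up 11.5% of the summed FPKM of the 9 genes in NIK, against 89.7% in NIK(KA) and 95.3% in β-Gal. The sum itself was 723 FPKM in NIK, 58.9 in NIK(KA) and 70.3 in β-Gal. In NIK the largest shares were those of Igsf9 (29.4%), Srgn (28.5%) and Madcam1 (23.3%), while Vcam1 held 4.34% and Icam1 2.94%. The counting intervals of Igsf9 (206 to 218 FPKM) and Srgn (198 to 214 FPKM) overlapped in NIK. Madcam1 (162 to 174), Alcam, Vcam1 (29.7 to 33.1) and Icam1 (19.8 to 22.8) followed in that order with intervals apart from each other. These intervals do not cover the length taken for each gene, on which the order rests.

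The remaining genes were near the limit of detection. Mcam makes a laminin-binding adhesion protein of endothelium, smooth muscle and melanoma cells. It was at 0.677 FPKM in NIK, 0.757 in NIK(KA) and 0.263 in β-Gal, from 15, 18 and 7 reads. Here β-Gal was the lowest, and NIK stood to NIK(KA) at a ratio of 0.894 (0.419 to 1.88). The ratio to β-Gal was 2.57 for NIK (0.987 to 7.46) and 2.88 for NIK(KA) (1.15 to 8.15). The antisense gene Gm10687 overlaps Mcam and held more reads, with 112, 124 and 137 in NIK, NIK(KA) and β-Gal, so the source of the few Mcam reads is uncertain.

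Cd44 makes the main receptor for hyaluronan. It had 9 reads in NIK and 0 in each other library, which is 3.60-fold above β-Gal and 3.22-fold above NIK(KA) when these are set to 3 reads. The exact intervals begin lower, at 2.37 and 2.12. F11r makes JAM-A, a protein of epithelial tight junctions that binds LFA-1. It had 6 reads in NIK and 0 in each other library, 2.40-fold and 2.15-fold by the same reckoning, and the exact intervals begin at 1.41 and 1.26. In NIK, Cd44 was at 0.208 FPKM and F11r at 0.320, with 0.170% and 0.224% of tested genes below them. The counting intervals of Mcam, F11r and Cd44 in NIK overlapped.

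**Figure D4:**
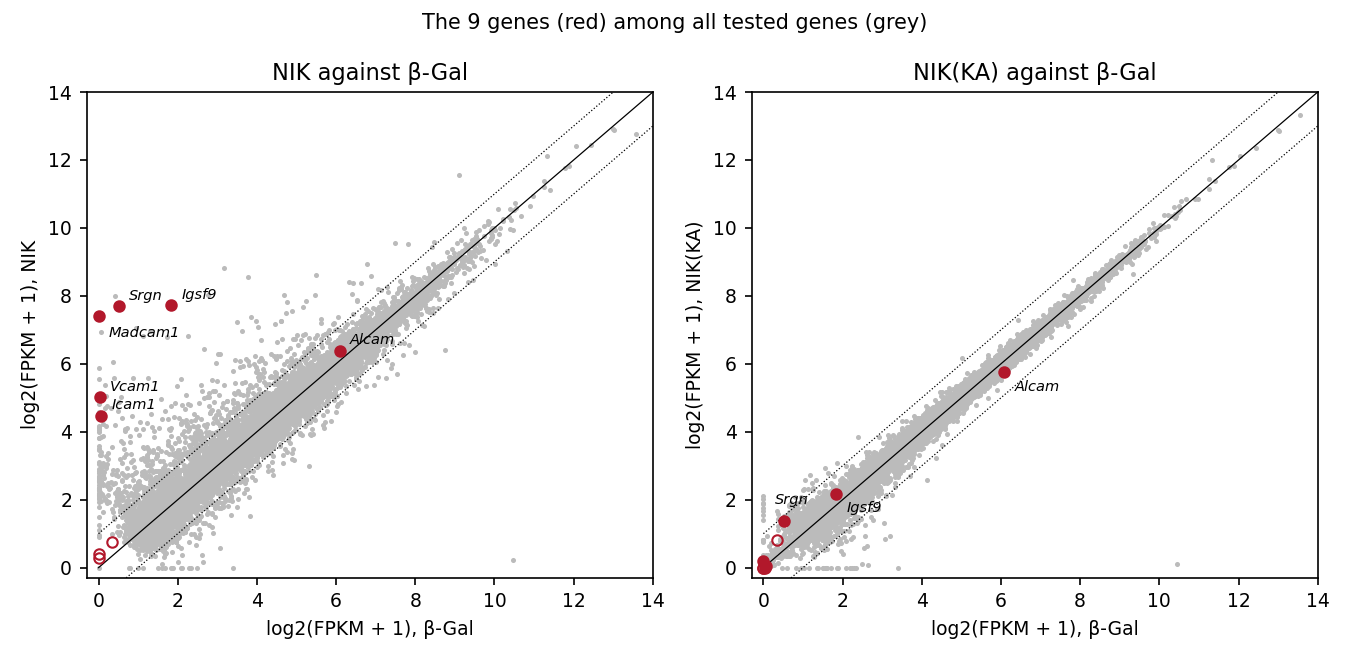
Levels on the log2(FPKM + 1) scale in NIK (left) and NIK(KA) (right) against β-Gal for all 12950 tested genes in grey and the 9 genes in red, open where the gene was under the filter; the solid line is equality and dotted lines are 2-fold. Of the 9 genes, 5 lie far above the upper dotted line on the left, and 0 lie outside the dotted lines on the right.

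The genes nearest in pattern were found by the Euclidean distance of log2(FPKM + 1) over the 3 libraries among 11150 protein-coding genes, which with 3 libraries is a description only. Nearest to Madcam1 were Cxcl1 (distance 0.50), Spib (0.72) and Csf1 (1.25). Nearest to Vcam1 were Ccl2 (0.04), Casp4 (0.21) and Lcn2 (0.35), and to Icam1 Ncf4 (0.13), Saa3 (0.14) and Lcn2 (0.26). Ccl2, a monocyte chemokine, was at 31.8 FPKM in NIK and 0 in the other libraries, next to the 31.4 FPKM of Vcam1. Nearest to Igsf9 were Relb (1.05), Nfkbie (1.17) and Stap2 (1.18), and to Srgn Csf1 (0.87), C3 (1.07) and Nfkbie (1.08). Alcam had other neighbours, Ralgps2 (0.11), Far1 (0.15) and Brca1 (0.16), all between 55.1 and 83.8 FPKM in every library.

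The integrins on the leukocyte side of these contacts were mostly under the filter. Of 10 listed integrin genes 2 passed the filter. Of these, 0 were called higher in NIK than in β-Gal and 1 lower, beside 5.14% and 1.48% of all tested genes. Itga4, the α4 chain that binds the Madcam1 and Vcam1 products, was called lower. It was at 0.843 FPKM in NIK, 1.65 in NIK(KA) and 3.03 in β-Gal, from 48, 101 and 207 reads. The libraries were again in steps, with NIK lowest, and its ratio of NIK to β-Gal was 0.278 (0.199 to 0.383). Itgb1, the partner of α4 for Vcam1 and of many other chains, was at 168 FPKM in NIK, 162 in NIK(KA) and 159 in β-Gal, nearly all of the summed FPKM of the list (173, 164 and 163). Itgb7, the partner of α4 for Madcam1, had 12, 10 and 5 reads in NIK, NIK(KA) and β-Gal. Of the LFA-1 chains, Itgal had 31, 3 and 2 reads and Itgb2 8, 7 and 3. Itga9, a further integrin chain that binds VCAM-1, was under the filter and was named after its values were seen, with 77, 2 and 2 reads. The rest of the list, Itgam, Itgax, Itgad and Itgae, had 10 reads or fewer in each library. Of these, Itgam, a chain of Mac-1, had 7, 10 and 10 reads in NIK, NIK(KA) and β-Gal.

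Selectins and the enzymes and carriers of their ligands act before firm adhesion. Of 17 listed genes 3 passed the filter, and 1 was called higher in NIK than in β-Gal and 0 lower, beside 5.14% and 1.48% of all tested genes. The gene called higher was B3gnt3, an enzyme that extends the core sugars of L-selectin ligands. It was at 5.95 FPKM in NIK, 1.63 in NIK(KA) and 0.896 in β-Gal, with a NIK to β-Gal ratio of 6.64 (4.91 to 9.13). B3gnt3 needed its NIK value to pass the filter, so nothing is read from the count of 1. The other 2 tested genes were the sialyltransferases St3gal4, at 15.0 FPKM in NIK, 14.7 in NIK(KA) and 16.8 in β-Gal, and St3gal6, at 13.8, 12.1 and 15.3 FPKM. Sele, the endothelial E-selectin gene, named after its values were seen, had 36, 1 and 0 reads.

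Among 32 other immunoglobulin-family and junction genes 19 passed the filter, with 5 called higher and 1 lower in NIK than in β-Gal, and a median of 0.56. Of all tested genes, 5.14% were called higher and 1.48% lower in that comparison, the background for each list here. Bcam, which makes a laminin receptor, was at 39.9 FPKM in NIK, 3.55 in NIK(KA) and 2.97 in β-Gal, 13.5-fold above β-Gal in NIK (10.3 to 17.9). Icam5, the telencephalic relative of Icam1, was at 5.49, 0.387 and 0.401 FPKM, 13.7-fold higher (8.85 to 22.2). Icam5 passed the filter through the NIK library alone, so nothing is read from the count of genes called higher. Chl1, a neural relative of L1, was 2.69-fold higher (2.43 to 2.99). Nrcam, a neuronal adhesion gene, had a ratio of 0.316 (0.241 to 0.411) and was the gene called lower. Of the closer relatives, Igsf9b was at 18.6 FPKM in NIK, 13.1 in NIK(KA) and 11.9 in β-Gal, with a NIK to β-Gal ratio of 1.57 (1.46 to 1.68). Jam3 had a ratio of 2.15 (1.64 to 2.83), with a difference of 0.95, while Jam2 (15, 9 and 20 reads) and Icam2 (2, 2 and 1 reads) were scarce.

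The last lists hold genes around CD44 and serglycin. Of 21 genes for hyaluronan and CD44 partners 12 passed the filter, and 1 was called higher in NIK than in β-Gal and 0 lower, with a median of 0.22, beside 5.14% higher and 1.48% lower of all tested genes. The gene called higher, Stab1, makes a scavenger receptor of macrophages and sinusoids. It had 145, 8 and 9 reads in NIK, NIK(KA) and β-Gal, a ratio to β-Gal of 19.3 (9.91 to 43.1). At 4.73, 0.243 and 0.245 FPKM in that order, Stab1 passed the filter through the NIK library alone, so nothing is read from this count. Of 28 genes for glycosaminoglycan assembly and other proteoglycans 22 passed the filter, and 2 were called higher and 0 lower, with a median of 0.13 and the same background. Sdc2, the gene of the proteoglycan syndecan-2, was 4.75-fold higher (3.74 to 6.08). At 1.26 FPKM in NIK(KA) and 1.24 in β-Gal, Sdc2 needed its NIK value to pass the filter, so nothing is read from that count either. Chst11, a chondroitin sulfotransferase, was at 12.3 FPKM in NIK, 4.78 in NIK(KA) and 4.27 in β-Gal, 2.88-fold above β-Gal in NIK (2.58 to 3.23). In NIK(KA) against β-Gal, 0 genes of these 5 lists were called in either direction, where 0.263% of all tested genes were called higher and 0.417% lower.

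**Figure D5:**
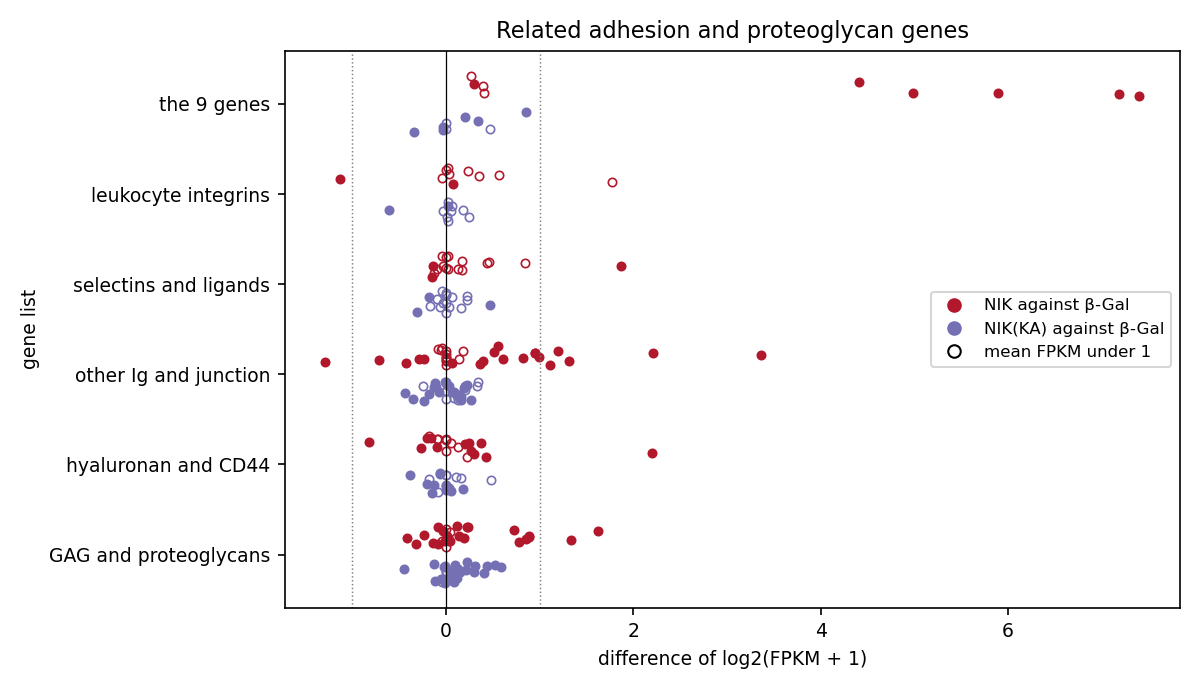
Difference of log2(FPKM + 1) for NIK against β-Gal and NIK(KA) against β-Gal, with 1 point per gene of the 9 genes and of 5 related lists, open where the mean was under 1 FPKM; dotted lines mark 2-fold, and points are spread vertically only for legibility. In NIK, 5 of the 9 genes lie between 4.41 and 7.40, while Bcam, at 3.37, is the farthest point of the related lists.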

How the data were processed

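Each library was a separate deposited table of FPKM values for 52948 gene IDs, and the authors made these values. The software was HTSeq 0.6.1 with TopHat2 on mouse build GRCm38, per the submitters' processing notes. What each did, whether counting used strand, how reads with several matches were treated and which annotation release was taken were not given in the sources used here. All 3 columns were used and 0 were left out.

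IDs were matched to GENCODE M21 (GRCm38), which named 52489 of them. FPKM times the rounded mean transcript length of a gene gave multiples of 1 read, and the commonest value gave each library total, shared by 2540 to 2775 genes per library. All 9 genes gave whole reads at their annotated length within 1e-05 of a read. Whole reads were found for 26575 of 26584 detected genes. They summed to 100.2% of each total, so reads of some other genes are approximate. Recovery and calls were tested on simulated data.

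Differences are of log2(FPKM + 1), so low genes differ by less on this scale than in their ratio. A call needed a difference of at least 1 (2-fold) and a mean of at least 1 FPKM, and Map3k14 was left out of the calls. With 1 library per group no test was made. Depth limits precision, and a count of 0 was taken to allow 3 reads. Ratios carry exact conditional binomial intervals at 95%.

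The 9 genes, the related lists and the markers were chosen with earlier results of these data known. Genes named from a related list are up to 4 called in NIK against β-Gal, with fixed partners and relatives of the 9 genes. For each of the 9 genes past the filter, the 3 genes nearest in pattern were found. The set of motifs was settled after the sequences were seen. Alternatives changed the pseudocount, filter, scaling, gene type or call. Python 3.11.15, pandas 2.3.3, numpy 2.4.6, scipy 1.17.1 and matplotlib 3.10.9 were used.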

Additional observations from a re-analysis of the deposited data

How the results depend on the processing

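Under all 9 alternatives, 5 of the 9 genes were higher and 0 lower in NIK than in either other library. Madcam1, Vcam1, Icam1, Igsf9 and Srgn each kept their call in every one. All but Igsf9 needed their NIK value to pass the filter of 1 FPKM, so nothing is read from this count. Of all tested genes, 6.45% were higher in NIK than in β-Gal with a pseudocount of 0.1 and 2.76% with 5. Against NIK(KA) these shares were 6.28% and 2.59%. With a pseudocount of 0.1, Mcam (1.10), Cd44 (1.62) and F11r (2.07) also differed by over 1 between NIK and β-Gal, but the filter leaves them uncounted. The size of the differences moved with the pseudocount. For NIK against β-Gal it ran between 5.11 and 10.72 for Madcam1, 2.86 and 8.04 for Vcam1, 2.38 and 7.20 for Icam1, 4.84 and 6.31 for Igsf9, and 5.28 and 8.62 for Srgn. For NIK(KA) against β-Gal, 2 of the 9 genes, Madcam1 and Srgn, were called higher with a pseudocount of 0.1, and 0 under the other alternatives. At that pseudocount 0.919% of all tested genes were called higher. The Madcam1 call rests on 3 reads against 0, and its exact interval begins at 0.462 and so includes 1. No gene of the 9 changed the sign of a difference under any alternative. Counts over all tested genes moved too. For NIK against β-Gal the 666 higher and 192 lower genes became 357 and 54 with a pseudocount of 5, and 392 and 106 with a mean of at least 5 FPKM. The lower genes became 357 with a pseudocount of 0.1 and 120 among protein-coding genes. For NIK against NIK(KA) the 657 higher and 142 lower genes became 335 and 34 with a pseudocount of 5, and 368 and 69 with a mean of at least 5 FPKM. The lower genes became 305 with a pseudocount of 0.1, 217 without a filter and 91 among protein-coding genes. For NIK(KA) against β-Gal the 34 higher and 54 lower genes became 119 and 128 with a pseudocount of 0.1, 1 and 6 with 5, 108 and 114 without a filter, 4 and 6 with a mean of at least 5 FPKM, 7 and 8 among protein-coding genes, and 11 and 22 when the counting interval had to exclude 1. The cause was not tested. No scaling moved the median of all tested genes by more than 0.1. No paired analysis was possible because each group holds 1 library, and no library could be left out of a comparison. At this depth, levels of Mcam, Cd44 and F11r rest on 18 reads or fewer.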

Other observations

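The nearest protein-coding neighbours on the chromosome were looked up for the 9 genes, and which to name was decided with their values in view. Icam1, Icam4 and Icam5 lie in 1 cluster of 23052 bases on chromosome 9, from 21015985 to 21039036 on GRCm38. Icam1 and Icam5 were higher in NIK, whereas Icam4, which lies 556 bases after Icam1 and 1478 before Icam5 and makes an adhesion protein of red blood cells, had 0 reads in all libraries. A count of 0 allows up to 3 reads. On the other side of Icam1, Mrpl4, a mitochondrial ribosomal protein gene, was at 145 FPKM in NIK, 104 in NIK(KA) and 91.2 in β-Gal, a difference of 0.66 between NIK and β-Gal.

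A scarce gene beside Igsf9 and another beside Madcam1 had most of their reads in NIK. Slamf9, an immune receptor gene 3213 bases before Igsf9, had 22 reads in NIK, 0 in NIK(KA) and 1 in β-Gal. Odf3l2, 18821 bases before Madcam1, had 25, 2 and 2 reads. The nearer neighbours on the other side were not called in NIK against β-Gal. Tagln2, 1169 bases beyond Igsf9, differed by 0.33, and Tpgs1, 832 bases beyond Madcam1, by 0.44. The neighbours of Srgn, Vps26a and Kif1bp, differed by 0.34 and -0.14. Whether reads run from a gene into its neighbour was not tested.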
